A study of Mus musculus with 5 samples.

Results

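The imprinted genes described here are 35 listed mouse genes outside the insulin-like growth factor axis, and 32 of them had a row of their own in a deposited table of 28092 rows. A member was taken as the row whose only name was the listed symbol, and where a symbol had several rows the one with the highest mean over the genotypes was used. Meg3, Mirg and Snrpn had no row of their own and appear only in rows that join several genes. The study compared mouse forelimbs at E11.5 (embryonic day), with 47 to 48 somites, from embryos whose strain was C57BL/6 mixed with Swiss Webster. There were 3 samples labelled control, for which the labels give no allele, and 2 labelled Prmt5cKO with the genotype Prx1Cre+/-;Prmt5c/c, called biological replicates in the series text. In the Prmt5cKO embryos the Prx1Cre recombinase, which is active in limb bud mesenchyme and not in all cells of the forelimb, acts on floxed copies of Prmt5, a gene for an arginine methyltransferase. The deposited values are 1 FPKM per genotype (fragments scaled to transcript length and library total) with the authors' log2 fold change and q-value (adjusted p-value). Neither an SD nor a depth per sample can therefore be given. A row was called changed where the authors' q was under 0.05 and the mean over the genotypes was at least 1 FPKM.

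Imprinted genes are transcribed mainly from the copy inherited from 1 parent, and most lie in clusters in which a methylated control region keeps genes of opposite parental origin apart. Many paternally expressed members promote growth of the embryo or placenta, and many maternally expressed members restrain it. Several clusters also make long noncoding RNAs, some of which carry microRNAs or small nucleolar RNAs in their introns. The division into maternally and paternally expressed members used here is textbook knowledge. FPKM values do not separate the parental copies, so a change cannot be placed on either of them.

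Sequences are shown for the Dlk1-Dio3 cluster on chromosome 12, where the members that fell lay closest together. Rtl1, a retrotransposon-derived gene needed for placental vessels, is transcribed there from the paternal copy, while microRNAs in its antisense strand are made from the maternal copy. Rtl1 spans chr12:109589193-109600330 on the minus strand of GRCm38 (GENCODE M21). In RefSeq (GRCm38.p6), 13 mature microRNA sequences lie inside this span, 11 of them on the opposite strand. All of these 11, from 6 hairpins, have their exact reverse complement in the 6358-base Rtl1 transcript of GENCODE M21. The 5p arm of each hairpin, the 3p arm of Mir127 and the single sequence of Mir432 are printed 5′ to 3′ with the seed (bases 2 to 8) in capitals:
mmu-miR-431-5p: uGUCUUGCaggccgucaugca
mmu-miR-433-5p: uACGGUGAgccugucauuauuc
mmu-miR-127-5p: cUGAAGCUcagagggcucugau
mmu-miR-127-3p: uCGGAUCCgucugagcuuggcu
mmu-miR-434-5p: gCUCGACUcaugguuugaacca
mmu-miR-432: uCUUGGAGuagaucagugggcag
mmu-miR-136-5p: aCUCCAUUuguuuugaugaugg
None of these printed sequences shares a seed with another. No source used here gives the strand setting of the authors' counting, so fragments of Rtl1 and of this antisense RNA cannot be told apart.

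Further along the same strand, 2 rows of the table join microRNAs of the cluster. The row that contains Mirg, a noncoding host transcript, names 14 microRNAs beside it, and a row of 17 names, among them Mir379, holds microRNAs alone. RefSeq gave mature sequences for 13 and 16 of these hairpins, with 50 distinct seeds between them, of which 5 are shared by 2 sequences each. A pair within the Mir379 row and 2 pairs that join both rows are shown to make the shared seed visible, again in capitals:
mmu-miR-379-5p: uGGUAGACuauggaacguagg
mmu-miR-1193-5p: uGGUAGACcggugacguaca
mmu-miR-376b-5p: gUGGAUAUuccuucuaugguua
mmu-miR-376c-5p: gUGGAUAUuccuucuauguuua
mmu-miR-410-5p: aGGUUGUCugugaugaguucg
mmu-miR-494-5p: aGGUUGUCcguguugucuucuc
The labels name no small RNA library, so the FPKM of such rows is no measure of mature microRNA.

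The Meg3 promoter stands at the upstream end of the noncoding RNAs of this cluster. The window from 250 bases before to 50 after its start, chr12:109540746-109541045 on the plus strand (RefSeq, GRCm38.p6), is printed because rows from Meg3 to Mirg fell together. Its capitals mark TGCCGC on either strand, the core motif bound by Zfp57, a zinc finger protein that protects methylated imprints:
Meg3: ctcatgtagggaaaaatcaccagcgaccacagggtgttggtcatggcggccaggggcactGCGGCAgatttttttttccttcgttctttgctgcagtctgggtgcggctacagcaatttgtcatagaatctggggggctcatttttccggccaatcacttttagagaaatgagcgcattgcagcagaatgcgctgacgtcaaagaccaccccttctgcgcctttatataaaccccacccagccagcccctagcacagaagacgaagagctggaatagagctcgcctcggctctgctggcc
Of 45 RefSeq promoter windows of 29 members, 10 (22.2%) held this motif, against 11.6% of all 32851 windows of the same length. The members' windows also held more CpG dinucleotides, with a median of 15 against 7 over all windows. H19, Peg10, Sgce, Cdkn1c, Rtl1 and Impact had no window in the table used. A match is a string of letters and no evidence of binding.

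Most imprinted members were not called, and the absence of a call does not show the absence of a change. Of the 32 members 27 reached a mean of 1 FPKM. Of these, 4 fell (H19, Grb10, Rian and Rtl1), 1 rose (Zim1), 15 did not pass and 7 had no test by the authors. Over all 12332 named rows at this level 17.5% fell and 4.44% rose (22.0% called in either direction), against 14.8% of these members that fell and 18.5% called in either direction. The share called among the members was thus close to that of the table. Among named rows that the authors tested, 24.2% were called, 19.3% fell and 4.9% rose. From a mean of 5 FPKM upwards 18.3% fell and 4.64% rose, and no member rose. The share without a test was larger among the members, 25.9% against 9.24% of the named rows. Their median log2((Prmt5cKO + 1) / (control + 1)) was -0.13 beside -0.11 over all named rows, and 20 of the 27 lay below 0. The whole table leaned downwards: rescaling by the median ratio, a shift of 0.13 without a pseudocount (-0.13 before rescaling), left 14 below 0, and quantile normalization left 12. Under at least 1 of these scalings 9 members that were not called changed sign.

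**Figure D1:**
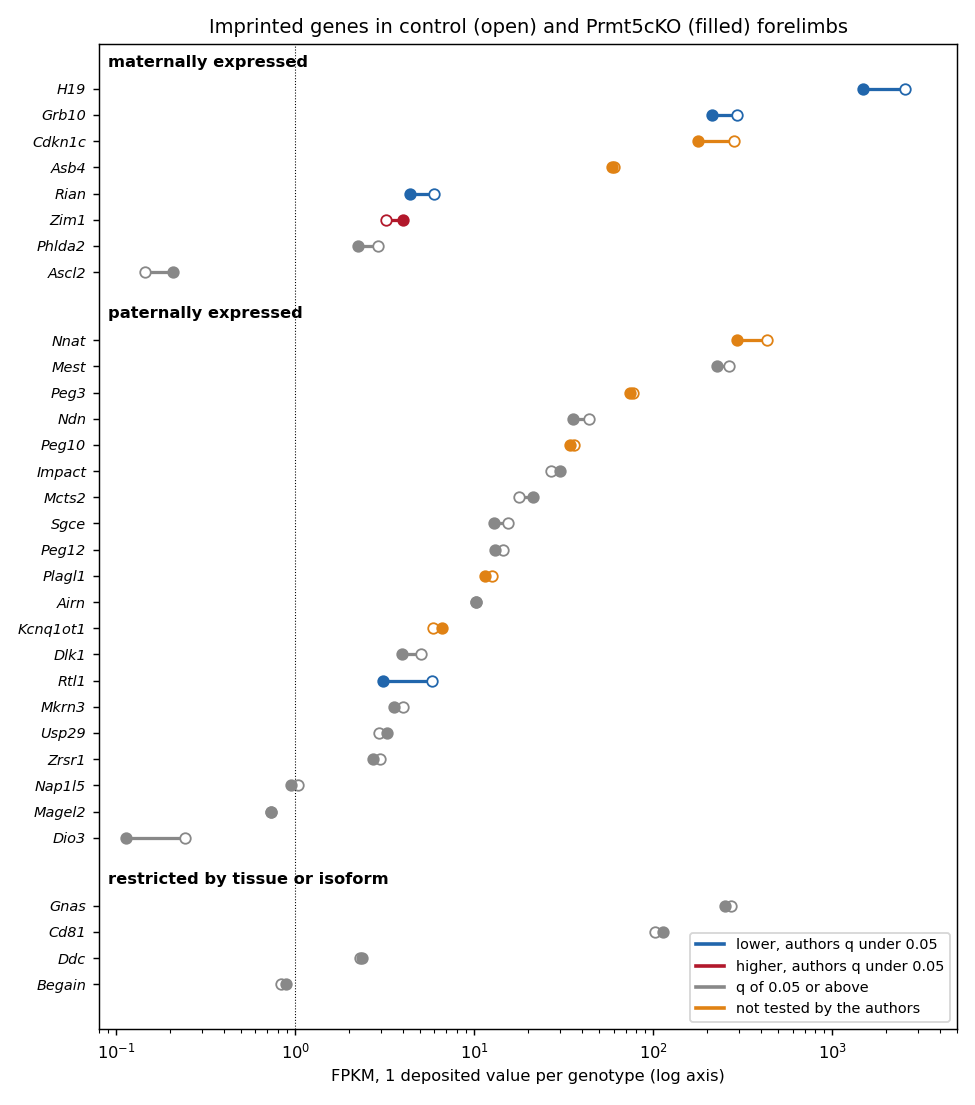
FPKM of the 32 members on a log axis, 1 deposited value per genotype, with control as open and Prmt5cKO as filled circles joined by a line coloured by the authors' call. The dotted line marks 1 FPKM. H19 at the top went from 2536 to 1487, Rtl1 from 5.78 to 3.09 and Zim1 from 3.23 to 4.01, while most other pairs of circles nearly touch.

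Maternally expressed members held 3 of the 4 falls. Of 7 that reached 1 FPKM, 3 fell (H19, Grb10 and Rian), 1 rose (Zim1), 1 did not pass (Phlda2) and 2 were not tested (Cdkn1c and Asb4). Of 17 paternally expressed members Rtl1 fell, none rose, 11 did not pass and 5 had no test. The shares that fell, 42.9% and 5.9%, stand beside 17.5% of all named rows, of which 4.44% rose. Fragments in the Rtl1 row cannot be told apart from those of the antisense RNA, which is made from the maternal copy. The median log2 ratio was -0.37 over the maternally expressed members, that is 0.26 below that of all named rows (-0.26), and -0.13 over the paternally expressed members (-0.02 relative to all named rows). Both classes ranged widely, from -0.77 to 0.24 and from -0.73 to 0.26. The difference between the medians, -0.24, kept its sign in all 11 alternative settings run for it, from -0.16 to -0.35. Members are not replicates, and the difference between the classes was not tested. The 3 members restricted by tissue or isoform that reached 1 FPKM, Gnas, Cd81 and Ddc, had a median of 0.03, and none was called.

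**Figure D2:**
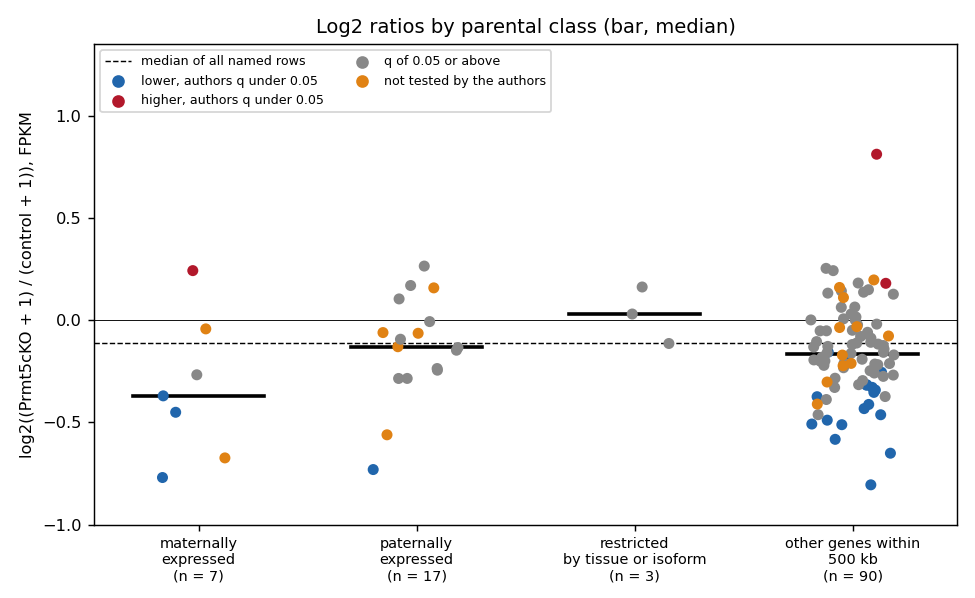
Log2((Prmt5cKO + 1) / (control + 1)) of each gene with a mean of at least 1 FPKM, by parental class and for 90 other genes within 500 kb, coloured by the authors' call. Bars are medians (-0.37, -0.13, 0.03 and -0.17) and the dashed line is the median of all named rows (-0.11); the maternally expressed members include points at both ends of the range.

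H19, a long noncoding RNA whose gene also encodes Mir675, was the most abundant member. It stood at 2536 FPKM in control, rank 9 of 23725 named rows, and at 1487 in Prmt5cKO. This was a fall by 0.77 on the log2 scale (q = 0.0017) per the authors' deposited table. Igf2, the growth factor gene beside it that is expressed from the opposite parental copy, also fell, with a log2 change of -0.53 per the authors' deposited table. Both neighbours thus moved in the same direction. H19 lies at chr7:142575529-142578143 on the minus strand (GRCm38, GENCODE M21).

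Grb10 encodes an adaptor that restrains insulin and growth factor receptors and is maternally expressed outside the nervous system. It went from 293 to 214 FPKM, a log2 change of -0.45 with q = 0.0015 per the authors' deposited table. Its neighbour Ddc, the decarboxylase of dopamine and serotonin synthesis, which is imprinted only in some tissues, was at 2.30 and 2.37 FPKM (q = 0.95 per the authors' deposited table). Of this pair Grb10 was called and Ddc was not, and the difference between the genes was not tested.

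The Kcnq1 cluster beside H19 had no called member. Cdkn1c, a maternally expressed inhibitor of cyclin-dependent kinases, went from 282 to 177 FPKM, a log2 ratio of -0.68 without a pseudocount, but the authors listed it with a fold of 0 and a q of 1, read here as not tested. Of the 1139 named rows without a test 7.55% were at most 1/1.4 of their control level, as Cdkn1c and Nnat were. Kcnq1ot1, the paternally expressed antisense RNA that silences the cluster, was at 5.85 and 6.64 FPKM, also without a test. Its overlapping gene Kcnq1 was at 0.310 and 0.271 FPKM. Phlda2, a regulator of placental growth, was at 2.89 and 2.23 FPKM (q = 0.53) and the membrane protein gene Cd81 at 102 and 114 (q = 0.37) per the authors' deposited table. Ascl2, a factor of placental progenitors, was under the minimum at 0.145 and 0.207 FPKM.

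In the Dlk1-Dio3 cluster most rows between Meg3 and Mirg fell, among them the row of Rtl1, in which fragments of the antisense RNA cannot be told apart. Rtl1 went from 5.78 to 3.09 FPKM, with a log2 change of -0.91 and q = 3.23e-07 per the authors' deposited table. Rian, a host of small nucleolar RNAs, went from 5.93 to 4.36 FPKM in the row used (log2 change -0.44, q = 0.0071) and from 5.77 to 3.86 in its other row of that name (-0.58, q = 0.0012) per the authors' deposited table. A further row, which joins Rian with 3 other names, went from 74.3 to 37.4 FPKM, with a log2 change of -0.99 and q given as 0 per the authors' deposited table. All 3 rows that name Rian were lower, and how reads were divided between them is not known.

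The shared rows of this cluster followed the same direction. The row with Meg3, the noncoding RNA that begins the maternal transcripts, went from 33.5 to 22.4 FPKM (log2 change -0.58, q = 6.38e-12 per the authors' deposited table). The row with Mirg went from 31.7 to 18.5 FPKM (-0.77, q given as 0 per the authors' deposited table). The row of 17 microRNA names with Mir379 went from 11.6 to 5.69 FPKM (-1.03, q = 0.0056), and that with Mir127 from 17.3 to 10.4 (-0.74, q = 0.0040), per the authors' deposited table. Mir136, which has a row of its own inside the Rtl1 span, had 2.51 FPKM in control and 2.06 in Prmt5cKO, without a call (q = 0.54 per the authors' deposited table).

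Between Meg3 and Mirg, an interval of 208.4 kb chosen after the values were seen, 11 named rows reached 1 FPKM. Of these 10 fell and 1 did not pass, and their log2 ratios without a pseudocount ran from -1.03 to -0.29 with a median of -0.65. The background is the 17.5% of named rows that fell, but these rows overlap or may share transcripts and are not independent. On the flanks, from 800 kb before to 1200 kb after the start of Dlk1, none of 9 rows was called, 8 did not pass and 1 had no test. Their median log2 ratio was -0.17. Dlk1, the paternally expressed Notch-related membrane protein, was at 5.06 and 3.97 FPKM (log2 change -0.35, q = 0.066) per the authors' deposited table. Begain, a synaptic scaffold gene, was at 0.836 and 0.887 FPKM, and Dio3, which inactivates thyroid hormone, at 0.242 and 0.113, both under the minimum level. The row with Dio3os, an antisense RNA next to Dio3, was at 0.106 and 0.111 FPKM.

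**Figure D3:**
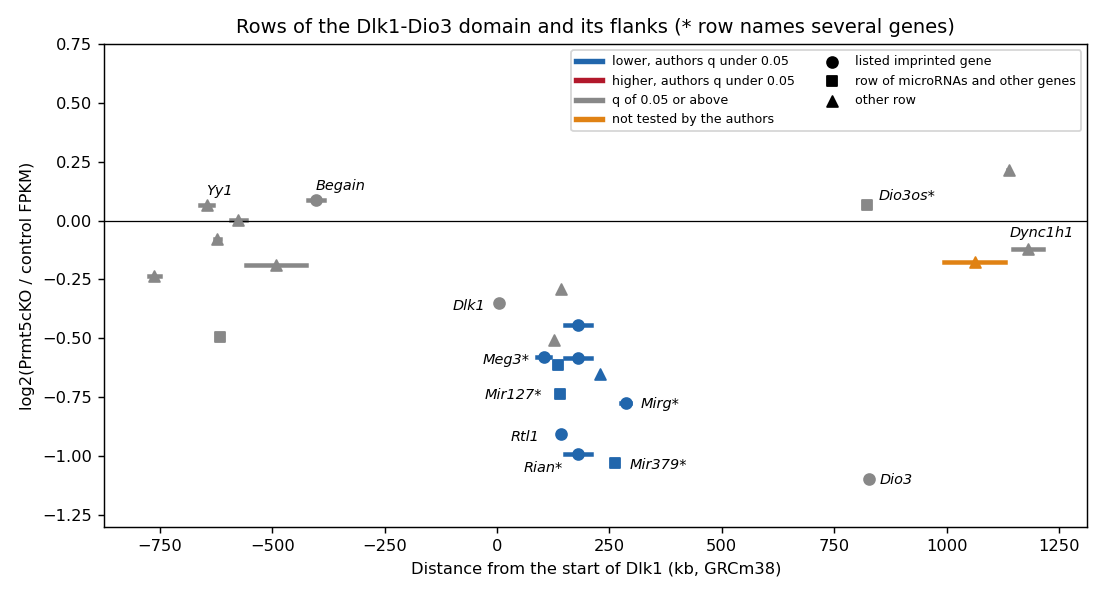
Log2 ratio of Prmt5cKO to control FPKM for rows with a mean of at least 0.1 FPKM, by distance in kb from the start of Dlk1 (lines show the annotated gene span, asterisks rows that name several genes). Rows between Meg3 and Mirg lie from -1.03 to -0.29, and most flanking rows lie nearer to 0; Dio3 is at -1.1 but at 0.242 and 0.113 FPKM. A row of several names is drawn at 1 of them.

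Zim1, a maternally expressed zinc finger gene of the Peg3 cluster, was the only member that rose. It went from 3.23 to 4.01 FPKM, with a log2 change of 0.31 and q = 0.017 per the authors' deposited table. Peg3, a paternally expressed zinc finger gene linked to growth and maternal behaviour, was at 77.2 and 74.0 FPKM and was not tested, and its other rows were at 54.6 and 51.0 and at 5.58 and 6.44. Usp29, a ubiquitin protease gene that starts beside Peg3 on the opposite strand, was at 2.95 and 3.25 FPKM (q = 0.42 per the authors' deposited table). Rows of these paternally expressed genes lay between 93.5% and 115% of control.

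The clusters on chromosome 6 had no called member. Mest, a paternally expressed hydrolase gene of the mesoderm, was at 266 and 226 FPKM (log2 change -0.24, q = 0.12 per the authors' deposited table). Peg10, a retrotransposon-derived gene needed for the placenta, was at 36 and 34.4 FPKM, and the maternally expressed ubiquitin ligase adaptor gene Asb4 at 60.3 and 58.5, both without a test. Sgce, the epsilon-sarcoglycan gene that starts next to Peg10, was at 15.5 and 12.9 FPKM (q = 0.34), with a second row at 1.27 and 1.58 (q = 0.35), per the authors' deposited table. Nap1l5, which lies within Herc3, was just under the minimum at 1.03 and 0.950 FPKM, while Herc3 fell from 3.75 to 2.98 (log2 change -0.33, q = 0.0038 per the authors' deposited table).

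Genes of the Snrpn cluster, whose human counterpart is affected in Prader-Willi syndrome, did not pass. Ndn, a growth suppressor of the MAGE family, was at 43.6 and 35.6 FPKM (log2 change -0.29, q = 0.13 per the authors' deposited table). Peg12 was at 14.5 and 13 FPKM (q = 0.38) and Mkrn3, a ubiquitin ligase gene, at 3.99 and 3.54 (q = 0.69) per the authors' deposited table. Magel2, another MAGE gene, was under the minimum at 0.737 and 0.733 FPKM. The row that joins Snrpn, a spliceosomal protein gene, with 3 other names was at 26.3 and 24.7 FPKM (q = 0.56 per the authors' deposited table). Rows of this cluster lay between 81.7% (Ndn) and 99.5% (Magel2) of their control level.

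The rows of Nnat and Gnas on chromosome 2 and of Plagl1 on chromosome 10 were lower in Prmt5cKO without a call. With the pseudocount, Gnas (-0.11) and Plagl1 (-0.13) lay close to the median of all named rows (-0.11). Gnas changed sign to 0.015 when rescaled by the median ratio, and Plagl1 to 0.014 under quantile normalization. Nnat, a small membrane proteolipid gene, went from 432 to 292 FPKM, a log2 ratio of -0.56 without a test, while Blcap, in which it lies, was at 19.3 and 18.5, also untested. Plagl1, a zinc finger factor that regulates other imprinted genes, was at 12.6 and 11.4 FPKM without a test. Gnas, the stimulatory G protein subunit with several imprinted promoters, was at 271 and 250 FPKM (log2 change -0.11, q = 0.060 per the authors' deposited table). The row that joins Nespas, an antisense RNA overlapping Gnas, with 2 microRNA names fell from 13.5 to 11.4 FPKM (log2 change -0.25, q = 0.0043 per the authors' deposited table). Another row of Gnas was at 1.54 and 1.02 FPKM (q = 0.40 per the authors' deposited table).

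Mcts2, Airn and Zrsr1 overlap a longer gene and were set beside it, and none of these 3 was called. Mcts2, a retrogene within H13, was at 17.7 and 21.4 FPKM (q = 0.33), while H13 fell from 29.6 to 23.0 (log2 change -0.36, q = 0.0015), per the authors' deposited table. Airn, the paternally expressed antisense RNA that silences Igf2r, was at 10.3 and 10.2 FPKM (q = 0.99), with another row at 1.29 and 1.52 (q = 0.57), while Igf2r fell from 57.9 to 46.1 (-0.33, q = 0.034), per the authors' deposited table. Zrsr1, a splicing factor retrogene within Commd1, was at 2.98 and 2.73 FPKM (q = 0.63) and Commd1 at 92.0 and 77.3 (q = 0.21) per the authors' deposited table. Impact, a translation regulator, was at 26.8 and 30.2 FPKM (q = 0.25 per the authors' deposited table). Differences within these pairs were not tested, and without a stated strand setting overlapping reads may be shared.

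**Figure D4:**
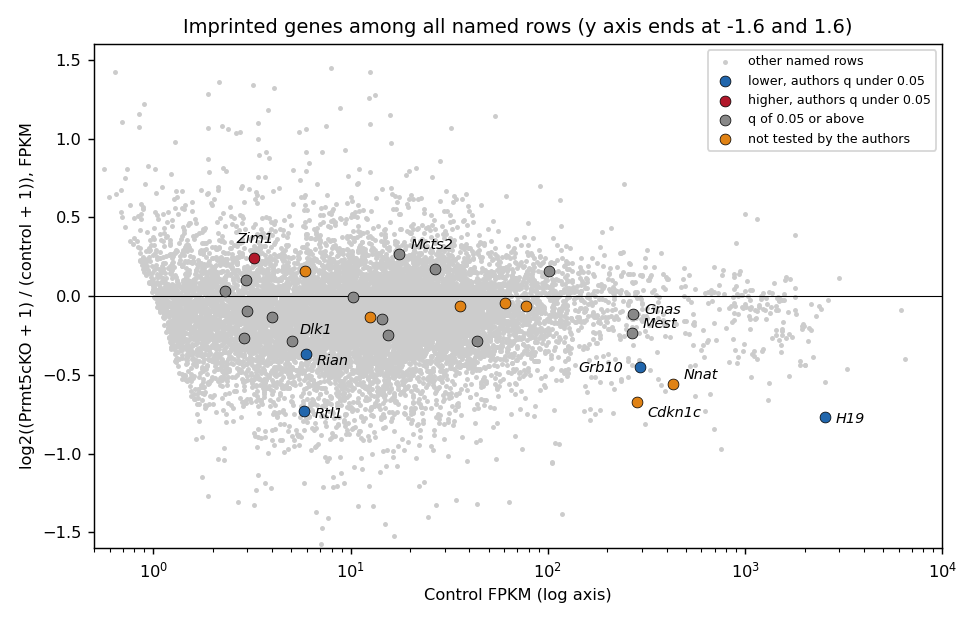
Log2((Prmt5cKO + 1) / (control + 1)) against control FPKM (log axis) for named rows with a mean of at least 1 FPKM (grey; points beyond 1.6 either way are not drawn) and the 27 members at that level, coloured by the authors' call. Among the 6 most abundant members, H19, Cdkn1c, Nnat and Grb10 lie at -0.77, -0.67, -0.56 and -0.45, and Mest and Gnas nearer to 0 at -0.24 and -0.11.

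Other imprinted genes were read from a list of 48 names, written with earlier results of these data known. The share of it that fell is therefore described only. Of 28 that reached 1 FPKM 9 fell (32.1%), none rose, 13 did not pass and 6 had no test, with a median log2 ratio of -0.22, beside 17.5% that fell and a median of -0.11 over all named rows. By the smallest q they were Trpm5, a cation channel gene (1.76 to 0.484 FPKM), Dcn, the matrix proteoglycan decorin (7.45 to 3.17), Cpa4, a carboxypeptidase gene (7.11 to 1.73), and Igf2 (233.5 to 161.5). Their log2 changes were -1.86, -1.23, -2.04 and -0.53 per the authors' deposited table. Several genes of this list are imprinted in placenta or brain only.

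Genes near the members were set beside them. Of 90 other single genes with a start within 500 kb of a member, 18 fell (20.0%), 2 rose, 59 did not pass and 11 had no test, with a median log2 ratio of -0.17. The share called, 22.2%, was close to the 22.0% of all named rows. Among those with the smallest q were Ube2h, a ubiquitin-conjugating enzyme near Mest that fell by 0.55, Nelfcd, a transcription elongation factor near Gnas that fell by 0.83, and Mir882, between Rian and Mirg, that fell by 0.65 on the log2 scale per the authors' deposited table. None of the 10 such genes near H19 and the Kcnq1 cluster was called. Imprinted genes on the other lists, such as Igf2, are not among them, but Igf2os is. Some of the 90 lie within imprinted clusters, such as Mir136 and Mir882 between Meg3 and Mirg.

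The genotypes also differed in other transcripts. Prmt5 fell from 40.9 to 12.5 FPKM, over the whole gene and in whole forelimbs, so the value does not measure deletion. The X-inactivation RNA Xist went from 87.3 FPKM in controls to 0.392, and Ddx3y, on the Y chromosome, from 0.0840 to 21.8. Effects of genotype and of embryo sex on the values above therefore cannot be told apart. Of the limb identity markers, Tbx5 was at 23.0 and 20.0 FPKM, Prrx1 at 122 and 107, Tbx4 at 3.81 and 2.95 and Pitx1 at 0.143 and 0.268. The counts of cell type genes below stand beside all named rows with a mean of at least 1 FPKM. Of those rows 17.5% fell, 4.44% rose and 69.65% had log2 ratios below 0. Of 15 cartilage genes 11 fell and none rose, and their summed level over 18 genes went from 337 to 158 FPKM. Of 18 macrophage genes 13 rose and none fell, and the sum over 23 went from 51.2 to 93.9. Of 18 myogenic genes 5 fell, with sums over 21 of 215 and 173. Of 15 ectoderm genes 5 rose and 1 fell, with sums of 214.5 and 218 FPKM. Of 8 erythroid genes 1 fell and none rose, all 8 had log2 ratios below 0, and their sum went from 9239 to 7353. In that sum Hbb-y, which was not called, held 6478 FPKM in control and 4911 in Prmt5cKO. Of 12 endothelial genes 3 fell (sums 105 and 95.6), of 6 nerve genes 2 fell (sums over 12 of 32.9 and 30.2), and of 13 limb identity genes 1 fell (sums over 14 of 617 and 611). No gene of the cartilage, macrophage and myogenic lists was at 0, and Lyve1, of the macrophage list, was under 0.1 FPKM. Their part in the values of the imprinted genes was not tested, and in whole forelimbs fewer cells of a type and less RNA per cell cannot be told apart.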

How the data were processed

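Forelimb RNA came from a TRIzol extraction and was sequenced as Illumina libraries, per the labels' protocols. Cufflinks 2.1.1, TopHat2 2.0.10, Bowtie2 2.1.0 and the build mm10 are listed without roles, per the submitters' processing notes. The annotation, the strand setting and the test behind q are not stated in the labels or file headers. As deposited, the authors' table holds 1 FPKM value per genotype, a log2 fold change and a q-value; how replicates were combined is not given, so whether q measures their spread is unknown. The deposited fold differed from the log2 ratio of the FPKM by at most 1.3e-05 over 20663 rows. A fold of 0 with a q of 1 and unequal FPKM was read as not tested. Rows naming no gene (4367, holding 1.94% of control FPKM and 2.08% of Prmt5cKO FPKM) were left out. A second table of 208 rows was not used.

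Log2 ratios used a pseudocount of 1 FPKM, which understates changes of low genes, unless stated. Planned fits over samples could not be run without values per sample. Counts and medians were computed in pandas 2.3.3 and checked on simulated data. Positions are from GENCODE M21 (GRCm38), matched for 95.5% of single genes. Members and lists were chosen with earlier results of these data known. Named were all members, the checks Prmt5, Xist and Ddx3y, genes overlapping members, and the 4 called genes with the smallest q of the other imprinted, imprint maintenance and nearby lists, of which 1 nearby gene is not reported here; rows of several names and markers were chosen after their values were seen.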

Additional observations from a re-analysis of the deposited data

How the results depend on the processing

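No value per sample was available, so leaving out replicates could not be run, and depth is unknown. No paired analysis was possible because each genotype has 1 column without replicate numbers. Values with no test were taken as moved past 0.1 on the log2 scale. With a minimum mean of 5 FPKM 0 members rose and the maternal median lay at -0.35 relative to the paternal one. With the authors' q under 0.01, 0 rose; with a fold of at least 1.5 also required, 2 fell and 0 rose. Rescaling by the median ratio put the maternal and paternal medians at -0.26 and -0.010, quantile normalization at -0.23 and 0.0091, so the paternal median changed sign; the cause was not tested beyond the downward lean that these settings remove. Assigning Gnas and Cd81 to the maternally expressed members put their median at -0.27. Counting the rows with Meg3, Mirg and Snrpn as members, added after the data were seen, gave 6 falls of 30 and a maternal median of -0.45. Leaving out members that overlap another gene gave 3 falls of 20.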

Other observations

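Genes that set or keep methylated imprints, and chromatin factors that silence imprinted clusters, were read from a list of 44 names. This list too was written with earlier results of these data known, so its shares are described only. Of 41 that reached 1 FPKM, 5 rose and 3 fell, while 20 did not pass and 13 had no test by the authors. The percentage called, 19.5%, stands beside 22.0% over all named rows. In this list 7.3% fell and rises outnumbered falls, while 17.5% of all named rows fell and 4.44% rose. Of all named rows 9.24% had no test. Eed, a subunit of Polycomb repressive complex PRC2, went from 33.5 to 52.5 FPKM, and Kdm1b, a histone demethylase needed for imprints in oocytes, from 9.01 to 5.64. Tet1 and Tet2, enzymes that oxidise methylated cytosine, went from 6.87 to 5.0 and from 13.3 to 10.4 FPKM. The log2 fold changes of these 4 genes were 0.65, -0.68, -0.46 and -0.36 per the authors' deposited table. Zfp57, which binds methylated imprints, rose by 0.16 on the log2 scale (q = 0.029 per the authors' deposited table).

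Rows of small RNAs in imprinted clusters were at 0 in both genotypes in several cases. All 10 rows for Snord116 RNAs of the Snrpn cluster were listed at 0, as were the single rows of Mir431, Mir432, Mir434 and Mir379 in the Dlk1-Dio3 cluster.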
